A study of Mus musculus with 13 samples.

Results

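The 8 genes described here build the machinery that divides and joins mitochondria. They are the fission genes Mff, Dnm1l, Fis1, Mief1 and Mief2 and the fusion genes Mfn1, Mfn2 and Opa1, taken by symbol from 18939 genes with counts and 49686 genes with FPKM values. The set was assembled around Mff, which was chosen by its difference between NSN-MII and SN-MII oocytes in these same libraries. That difference is therefore given as a description, with no test, and so are the values of the other members between the MII groups. Of the 8 members, 7 passed the filter on low counts, and Mief2 did not.

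RNA was sequenced from 13 mouse oocytes, each in a library of its own. GV oocytes came from C57BL/6 females of 3 to 4 weeks primed for 48 h with PMSG, received FBL-GFP and H2B-mCherry mRNA by injection, and were held for 6 h in 10 µM Cilostamide, a phosphodiesterase inhibitor that keeps them at the GV (germinal vesicle) stage. They were then sorted by the FBL-GFP pattern of the nucleolus into NSN (non-surrounded nucleolus, still transcribing) and SN (surrounded nucleolus, transcriptionally quiescent) oocytes, and part of them was matured to metaphase II. The groups were 3 SN GV, 3 NSN GV, 4 SN-MII and 3 NSN-MII oocytes, and NSN-MII and SN-MII name the type of the GV oocyte before maturation. All groups share the injection and the Cilostamide block, and MII oocytes could come only from oocytes that completed maturation in vitro. The sources do not say which oocytes came from the same female, so the spread between libraries is that between these oocytes. Library totals lay between 7140416 and 8846287 estimated counts, and 11593 to 13342 genes had at least 1 count. All 12 oocyte markers examined reached 1 FPKM in each group. Of 14 granulosa and cumulus markers, 4 or 5 reached 1 FPKM in a group. Their summed FPKM was 28.5 to 37.9 in SN GV and 32.0 to 36.3 in NSN GV libraries. It was 39.4 to 48.4 in SN-MII and 41.9 to 64.9 in NSN-MII libraries, and the MII groups overlapped. Foxl2 and Ptx3, which mark these cells, were at 0 in each library. Cyp19a1 (16.8 to 53.05 FPKM), Nr5a2 (2.58 to 11.19) and Kitl (0.59 to 7.58) were above 0 in each library. The part of such cells in the results was not tested.

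Mitochondria divide when the dynamin-related GTPase Drp1, encoded by Dnm1l, assembles around the outer membrane and constricts it. Drp1 is cytosolic and is brought to mitochondria by adaptors of the outer membrane: Mff, MiD51 (Mief1) and MiD49 (Mief2), with Fis1 as a further outer membrane protein of this pathway. The mitofusins Mfn1 and Mfn2 join outer membranes, and Opa1 joins inner membranes and shapes the cristae. Mouse oocytes carry very many small, round mitochondria, and oocyte-specific loss of Drp1 or of Mfn1 is known to impair oocyte development.

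Mff lies on chromosome 1 (chr1:82724890-82752394, plus strand, GRCm38). The noncoding antisense gene C430014B12Rik (chr1:82691928-82725169, minus strand) covers its start and shares 195 exonic bases with it. The 250 bases upstream of Mff are shown because they lie wholly within an annotated exon of that antisense gene. The capitals mark a CCAAT box and a GC box (GGGCGG, here on the opposite strand), and the sequence is from RefSeq, GRCm38.p6, chr1:82724640-82724889, plus strand.

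Mff upstream: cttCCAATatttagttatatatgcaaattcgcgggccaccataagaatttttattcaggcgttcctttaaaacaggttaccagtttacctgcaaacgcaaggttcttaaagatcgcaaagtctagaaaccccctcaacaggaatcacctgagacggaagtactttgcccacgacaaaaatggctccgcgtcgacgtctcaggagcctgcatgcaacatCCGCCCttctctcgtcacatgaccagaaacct

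Motifs were searched on both strands in the RefSeq promoters, which span 250 bases before to 50 after each start. A member was counted where any of its promoters held the motif, while the shares are over single promoters. Mff, Dnm1l and Fis1 had 2 starts and Mfn2 had 3, so counts and shares are not in the same unit. CCAAT was present in 6 of the 8 members and in 37.4% of 32851 promoters. GGGCGG was present in all 8 members and in 35.7% of promoters. TATAAA was present in none of the 8 members and in 13.6% of promoters.

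The 3′ ends of 4 members are shown because the cDNA was primed on poly(A) tails, which oocytes lengthen and shorten on stored mRNAs during maturation. Each is a 30-base stretch from the GENCODE M21 transcript (GRCm38). The capitals mark the poly(A) signal or, for Mfn1, a cytoplasmic polyadenylation element (TTTTAT), which lay 64 bases from the end.

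Mff (chr1:82752365-82752394, plus strand): gtgtatttAATAAActgtcaaccaaagcaa
Dnm1l (chr16:16312236-16312265, minus strand): taAATAAAaatgctggtgtgcaattgccag
Fis1 (chr5:136966203-136966232, plus strand): agtgtaAATAAAattgggccgtggctcggg
Mfn1 (chr3:32579174-32579203, plus strand): atTTTTATaagtatgcaagcttgcaagatg

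A poly(A) signal (AATAAA or ATTAAA) was present in the last 100 bases of all 8 members and of 78.5% of 19954 coding genes. A polyadenylation element (TTTTAT or TTTTAAT) was present there in Mfn1 alone among the members and in 17.8% of genes. With poly(A) priming and no spike-in, a change in RNA amount and a change in tail length cannot be told apart in any of the values that follow.

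Levels between genes were compared by FPKM, which is scaled by gene length. Mff was by far the most abundant member in GV and SN-MII oocytes. SN GV oocytes held 625 ± 37.5 FPKM (SD, n = 3), NSN GV oocytes 564.5 ± 68.3 FPKM (SD, n = 3) and SN-MII oocytes 716 ± 216 FPKM (SD, n = 4), which placed it at rank 124, 138 and 98 of 18939 genes. In NSN-MII oocytes its mean was 120 ± 10.99 FPKM (SD, n = 3), rank 822. Dnm1l was next in GV and SN-MII oocytes, with 71.8 ± 7.68 FPKM (SD, n = 3) in the SN and 65.4 ± 24.9 FPKM (SD, n = 3) in the NSN type at GV, and 129.5 ± 18.0 FPKM (SD, n = 4) in SN-MII oocytes. In NSN-MII oocytes Dnm1l stood above Mff, at 148 ± 9.43 FPKM (SD, n = 3). The libraries of Mff and Dnm1l did not overlap in any of the 4 groups.

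The remaining members were lower, and several neighbours in the order did not differ beyond their spread. In SN GV oocytes Fis1 followed at 43.2 FPKM, then Mfn1 at 24.8, Mief1 at 22.5, Opa1 at 17.4 and Mfn2 at 6.4, and of these neighbours only Mfn1 and Mief1 overlapped. In NSN GV oocytes the order was the same, with Fis1 at 37.3, Mfn1 at 18.9, Mief1 at 17.9, Opa1 at 15.7 and Mfn2 at 6.55 FPKM, but the libraries of Dnm1l and Fis1 overlapped, and so did Mfn1 with Mief1, Mief1 with Opa1, and Opa1 with Mfn2. At MII the order changed: in SN-MII oocytes Mfn1 (22.9 FPKM) and Opa1 (18.8) stood above Fis1 (12.3) and Mief1 (8.51), with overlap between each of these neighbours. In NSN-MII oocytes Mfn1 (23.9) and Opa1 (23.4) overlapped, Fis1 (9.87) and Mief1 (7.52) overlapped, and Opa1 and Fis1 did not. Mfn2 was the lowest member with a clear signal in each group, at 2.77 FPKM in SN-MII and 2.44 in NSN-MII oocytes. Mief2 was close to absent. Its estimated counts were 0, 1 and 7 in SN GV, 12, 9 and 1 in NSN GV, 1, 0, 0 and 0 in SN-MII, and 1, 0 and 1 in NSN-MII oocytes. Both MII groups were thus at or under a floor of 3 counts per library, and no fold is given.

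**Figure D1:**
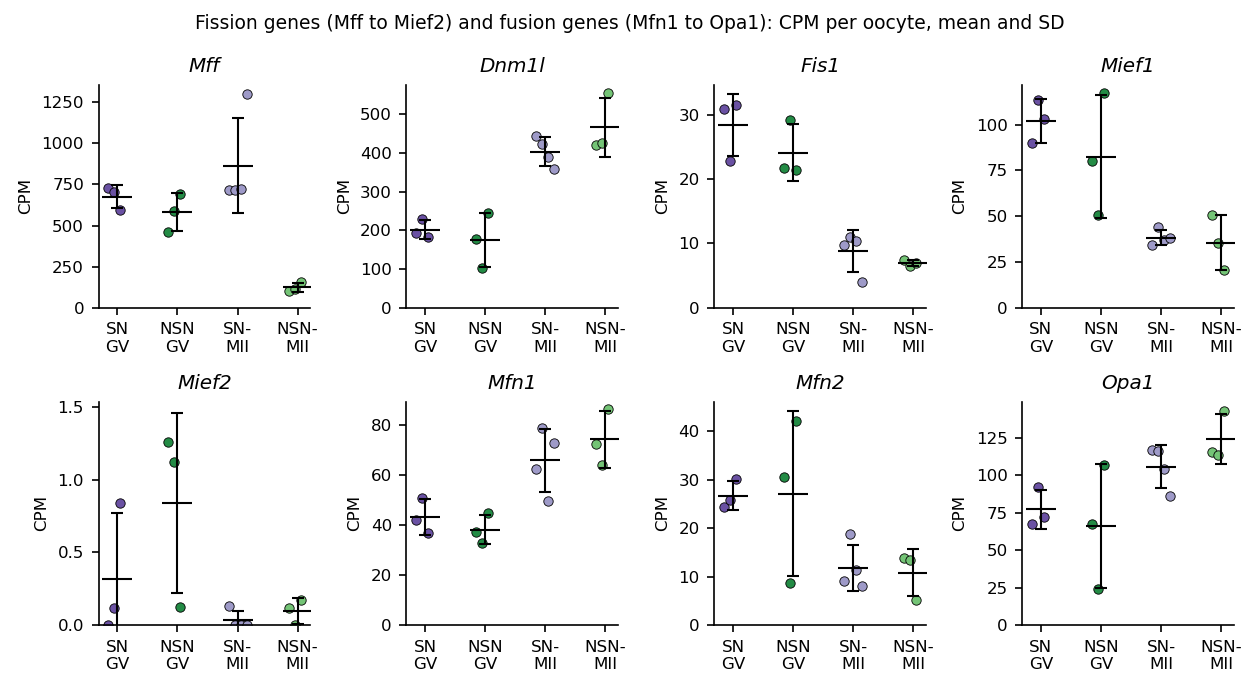
CPM (counts scaled to library size with TMM factors, linear axis from 0) of the 8 members in each oocyte. Points are oocytes, bars are the mean and SD of SN GV (n = 3), NSN GV (n = 3), SN-MII (n = 4) and NSN-MII (n = 3) oocytes. The NSN-MII oocytes sit between 102 and 157 CPM for Mff, below the other 10 oocytes, while Dnm1l is higher and Fis1 lower at MII than at GV in both types.

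Within a gene, libraries were compared by CPM, which are counts scaled to library size with TMM factors, as in the plot of CPM per oocyte. Without a spike-in, CPM are relative to the other transcripts of an oocyte, and a change in total RNA is not seen. Higher, lower, rose and fell are meant in this relative sense. Mff encodes the adaptor that recruits Drp1 to the outer membrane. In SN GV oocytes it was at 728.5, 702 and 594 CPM. In NSN GV oocytes it was at 463, 590 and 692 CPM. The GV groups overlapped, with a log2 fold change of NSN over SN of −0.20 (SE 0.16, edgeR quasi-likelihood test, adjusted p = 1).

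At MII the types separated for Mff. In SN-MII oocytes it was at 719, 714, 721 and 1297 CPM. In NSN-MII oocytes it was at 102, 116 and 157 CPM. The groups did not overlap, and the lowest SN-MII oocyte stood above the highest NSN-MII oocyte. The log2 fold change of NSN-MII over SN-MII was −2.79 (SE 0.25), which is 6.94-fold lower. The fourth SN-MII oocyte was far above the others, and without it the log2 fold change was −2.53. Of all 10028 genes tested at MII, 0.279% had an adjusted p under 0.05 in edgeR, a background from which nothing is read for Mff.

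The same separation appeared between stages. In SN oocytes, the log2 change of Mff from GV to MII was 0.35 (SE 0.24), and the CPM of the 2 stages overlapped. In NSN oocytes it was −2.22 (SE 0.27), a 4.66-fold lower level at MII, and the stages did not overlap. The NSN to SN difference on the log2 scale changed by −2.57 from GV to MII (SE 0.36). These values share the NSN-MII libraries with the difference by which Mff was chosen, so no p-value is given for them.

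The other 6 members with enough counts did not separate between SN-MII and NSN-MII oocytes in CPM. Their log2 differences of NSN-MII over SN-MII were 0.20 for Dnm1l (SE 0.15), −0.34 for Fis1 (SE 0.41), −0.10 for Mief1 (SE 0.29), 0.17 for Mfn1 (SE 0.20), −0.11 for Mfn2 (SE 0.43) and 0.22 for Opa1 (SE 0.17). Of the 8 members, Mff alone had MII libraries without overlap, and 10.2% of all genes tested at MII showed no overlap. Mff was chosen by this difference, so nothing about the members is read from this count. The signs of Mief1 and Mfn2 turned when single libraries were left out, within −0.44 to 0.17 and −0.33 to 0.21.

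Between the GV types, no member was called. None of the 8 members had separate NSN GV and SN GV libraries, against 6.04% of the 10839 genes tested. The share of genes called was 0% (edgeR, adjusted p under 0.05), with 183 genes at an unadjusted p under 0.05, and DESeq2 called none either. The log2 differences of NSN over SN lay between −0.29 for Mief1 (SE 0.29) and 0.05 for Mfn2 (SE 0.49), each with an adjusted p of 1 in edgeR. The second NSN GV oocyte was the lowest GV oocyte for Dnm1l, Mief1, Mfn1, Mfn2 and Opa1, and without it the differences of Dnm1l and Opa1 turned to 0.10 and 0.20.

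**Figure D2:**
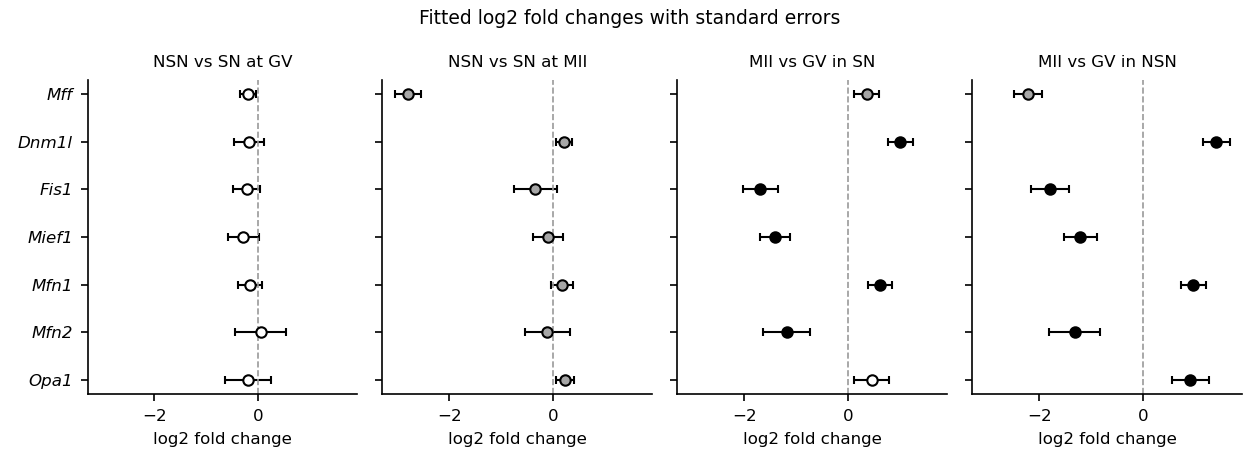
Log2 fold changes (points) with standard errors (bars) of the 7 members with enough counts, in 4 comparisons. Black points passed edgeR's test at an adjusted p under 0.05, and white points did not. Grey points are shown without a test result because Mff was chosen from the MII difference. Mff stands at −2.79 between the MII types and at −2.22 between the stages of NSN oocytes, while the other members lie within 0.35 of 0 between types. Of the 6 others, each but Opa1 in SN oocytes passed the test between stages.

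The stage comparisons of the members other than Mff did not use the MII type difference. In SN oocytes, 2 of these 6 members rose to MII (Dnm1l and Mfn1) and 3 fell (Fis1, Mief1 and Mfn2), against a background of 25.1% of 11375 genes higher and 31.2% lower. In NSN oocytes, 3 rose (Dnm1l, Mfn1 and Opa1) and the same 3 fell, against 25.4% of genes higher and 30.7% lower. The stage thus changed 6405 genes in SN and 6386 in NSN oocytes, and a change of a member is not particular to this pathway. The plot of log2 fold changes shows that each of the 6 members had the same sign in both types. The calls of Mfn1 and Mfn2 in both types and of Opa1 in NSN oocytes depended on the processing, as given below.

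Dnm1l, which encodes the GTPase Drp1 itself, rose in both types. It was at 193, 230 and 182 CPM in SN GV oocytes and at 443, 423, 389.5 and 357 CPM in SN-MII oocytes. It was at 178, 103.7 and 244 CPM in NSN GV oocytes and at 419, 425 and 554 CPM in NSN-MII oocytes. No MII oocyte was as low as any GV oocyte of its type. The log2 change was 0.999 in SN (SE 0.24, edgeR adjusted p = 0.00208) and 1.41 in NSN oocytes (SE 0.26, edgeR adjusted p = 0.000205). Dnm1l shares 243 exonic bases with the antisense gene Gm49521, and the libraries are not stranded.

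Fis1, a small tail-anchored protein of the outer membrane, fell in both types. It was at 30.8, 22.8 and 31.5 CPM in SN GV oocytes and at 9.81, 11.04, 10.4 and 3.95 CPM in SN-MII oocytes. It was at 21.7, 29.2 and 21.4 CPM in NSN GV oocytes and at 7.38, 6.55 and 6.92 CPM in NSN-MII oocytes. The stages did not overlap in either type. The log2 change was −1.69 in SN (SE 0.33, edgeR adjusted p = 0.000397) and −1.79 in NSN oocytes (SE 0.37, edgeR adjusted p = 0.000568). The fourth SN-MII oocyte, which was the highest for Mff, was the lowest for Fis1, at 29 counts.

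Mief1, which encodes the Drp1 adaptor MiD51, also fell. It was at 89.8, 113 and 103 CPM in SN GV oocytes and at 34.1, 44.3, 36.9 and 38.1 CPM in SN-MII oocytes, with no overlap. It was at 80.0, 50.4 and 117 CPM in NSN GV oocytes and at 50.4, 35.5 and 20.8 CPM in NSN-MII oocytes, where the lowest GV and the highest MII oocyte met. The log2 change was −1.41 in SN (SE 0.29, edgeR adjusted p = 0.00068) and −1.21 in NSN oocytes (SE 0.32, edgeR adjusted p = 0.00415). Mief1 shares 213 exonic bases with AC140267.1 on the same strand.

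Of the mitofusins, Mfn1 was higher and Mfn2 lower at MII. Mfn1 was at 42.2, 50.8 and 36.7 CPM in SN GV oocytes and at 62.5, 78.7, 49.8 and 72.6 CPM in SN-MII oocytes, and the third SN-MII oocyte overlapped the GV range. It was at 37.1, 32.8 and 44.6 CPM in NSN GV oocytes and at 72.4, 64.0 and 86.6 CPM in NSN-MII oocytes, with no overlap. The log2 change was 0.61 in SN (SE 0.23, edgeR adjusted p = 0.0317) and 0.96 in NSN oocytes (SE 0.24, edgeR adjusted p = 0.00293). In FPKM the change in SN oocytes turned to −0.14 on the log2(FPKM + 1) scale (limma, adjusted p = 0.698), and with library totals in place of TMM factors it was 0.31 (edgeR, adjusted p = 0.225). In NSN oocytes the change fell to 0.29 on the log2(FPKM + 1) scale and was no longer called (limma, adjusted p = 0.424). The effective length that the count and the FPKM of Mfn1 imply varied 2.96-fold between libraries, more than in 98.8% of the 4093 genes examined. Its FPKM values may therefore depend on how reads were shared among its transcripts, which was not tested.

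Mfn2 was at 24.3, 25.8 and 30.1 CPM in SN GV oocytes and at 9.02, 18.7, 11.3 and 8.04 CPM in SN-MII oocytes, with no overlap. It was at 30.6, 8.61 and 42.2 CPM in NSN GV oocytes and at 13.8, 13.3 and 5.23 CPM in NSN-MII oocytes, where the second NSN GV oocyte fell among the MII oocytes. The log2 change was −1.18 in SN (SE 0.46, edgeR adjusted p = 0.0361) and −1.32 in NSN oocytes (SE 0.50, edgeR adjusted p = 0.033). Both calls were close to the threshold. In SN oocytes the adjusted p rose to 0.0973 without the third SN GV oocyte, and in NSN oocytes to 0.185 without the third NSN GV oocyte (edgeR).

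Opa1, the dynamin of the inner membrane, was at 67.7, 92.2 and 72.4 CPM in SN GV oocytes and at 117, 116, 103.9 and 86.2 CPM in SN-MII oocytes. It was at 67.5, 23.96 and 107 CPM in NSN GV oocytes and at 115.5, 113 and 143 CPM in NSN-MII oocytes. The stages overlapped in SN and not in NSN oocytes. The log2 change was 0.45 in SN (SE 0.34, edgeR adjusted p = 0.267) and 0.91 in NSN oocytes (SE 0.36, edgeR adjusted p = 0.0407). Without the second NSN GV oocyte the NSN change was 0.50 (edgeR adjusted p = 0.102), and with library totals alone it was 0.60 (adjusted p = 0.179).

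**Figure D3:**
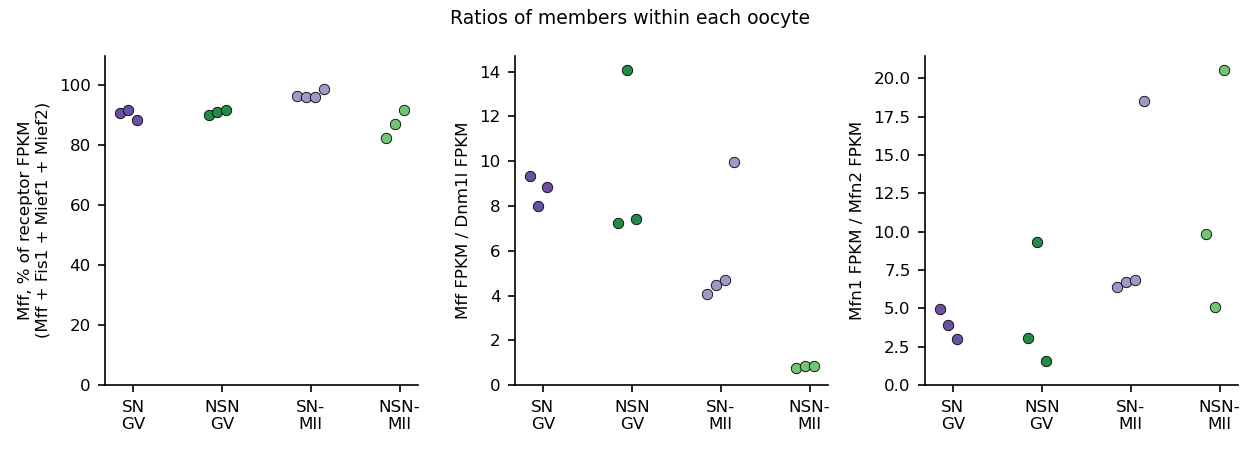
Ratios of FPKM values within each oocyte, with points for oocytes of the 4 groups on linear axes from 0. The left plot gives Mff as a percentage of the adaptors Mff, Fis1, Mief1 and Mief2, the middle plot Mff over Dnm1l, and the right plot Mfn1 over Mfn2. Mff over Dnm1l lies between 0.746 and 0.848 in NSN-MII oocytes and at 4.08 or more in the other 10 oocytes. The left and middle plots hold the MII difference by which Mff was chosen.

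Ratios within an oocyte do not depend on how libraries are scaled. Mff was 7.22 to 14.1 times Dnm1l in the 6 GV oocytes and 4.08 to 9.95 times Dnm1l in the SN-MII oocytes. In the NSN-MII oocytes it was 0.746, 0.838 and 0.848 times Dnm1l. NSN-MII oocytes were the only group with more Dnm1l than Mff per length, as the plot of ratios shows. Mff was chosen by its difference between the MII types, so ratios and shares that hold Mff restate that difference at MII. Mff made up 80.0% to 85.5% of the summed FPKM of the 5 fission genes in GV oocytes, 78.0% to 89.9% in SN-MII and 39.2% to 44.0% in NSN-MII oocytes. The summed FPKM of the fission genes was 270 to 301 in NSN-MII oocytes and 753 to 1156 in SN-MII oocytes, and without Mff it was 155 to 174 and 117 to 167.

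Mff remained the main adaptor transcript even where it was low. Its share of the summed FPKM of Mff, Fis1, Mief1 and Mief2 was 88.5% to 91.9% in GV oocytes, 96.1% to 98.8% in SN-MII oocytes and 82.5% to 91.7% in NSN-MII oocytes. The fusion genes together were at 40.0 to 53.4 FPKM in SN-MII and 40.7 to 57.5 FPKM in NSN-MII oocytes, which overlapped. The ratio of fission to fusion FPKM was 14.9 to 26.4 in SN-MII and 4.97 to 6.63 in NSN-MII oocytes. This ratio too holds the difference by which Mff was chosen. Mfn1 over Mfn2 was 1.55 to 9.34 in GV oocytes and 5.10 to 20.5 in MII oocytes, a ratio that rests on few Mfn2 reads in some oocytes.

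**Figure D4:**
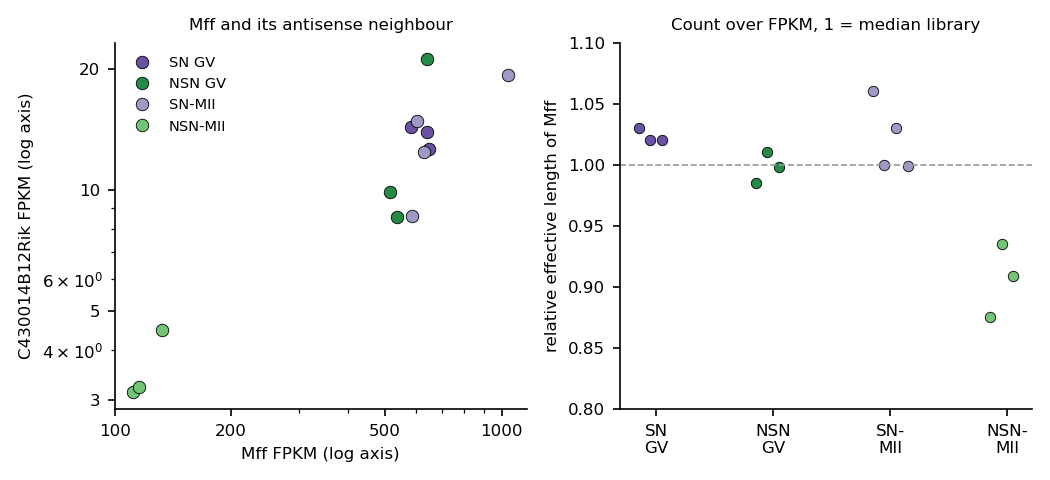
Left, FPKM of the antisense gene C430014B12Rik against FPKM of Mff on log axes, with 1 point per oocyte. Right, the effective length of Mff implied by count over FPKM, relative to the median library, on an axis that starts at 0.8. The 3 NSN-MII oocytes lie lowest on both axes at left and between 0.875 and 0.935 at right, below the other 10 oocytes.

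The antisense gene at the start of Mff had its lowest values in the same oocytes. C430014B12Rik was at 12.6, 13.9 and 14.3 FPKM in SN GV oocytes and at 9.87, 8.57 and 21.2 FPKM in NSN GV oocytes. It was at 8.59, 12.4, 14.9 and 19.3 FPKM in SN-MII oocytes and at 3.13, 3.22 and 4.48 FPKM in NSN-MII oocytes. The MII groups did not overlap. The gene was looked at after the values of Mff were known, and reads from the shared exons cannot be assigned to a strand, so the 2 genes are not independent measures. The plot of both genes shows the NSN-MII oocytes apart from the others.

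The effective length of Mff implied by its count and FPKM was also lower in NSN-MII oocytes. Relative to the median library it was 0.875, 0.935 and 0.909 in NSN-MII oocytes and 0.985 to 1.06 in the other oocytes. A shorter effective length can arise where RSEM assigned a larger share of the reads to shorter transcripts of the gene. The annotation lists 16 transcripts of Mff, and values per transcript were not examined, so this was not tested. Such a separation between the MII groups was present in 13.8% of the 4093 genes examined. Among the other members, Mief1 (0.961 to 1.09 in NSN-MII against 0.838 to 0.956 in SN-MII) also separated, in the opposite direction. So did Fis1 (0.999 to 1.01 against 0.988 to 0.997), but its ranges lay close together and it had as few as 29 counts in a library.

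The 5 genes whose profile was most like that of Mff over the 13 libraries, by Pearson's r of log2 CPM, were Aurkb (r = 0.957), Arf3 (0.954), Pdcl3 (0.948), Camkmt (0.944) and Siah1a (0.944). Each had its lowest group mean in NSN-MII oocytes, which follows from picking them by their likeness to Mff in these libraries. Aurkb, the catalytic kinase of the chromosomal passenger complex, was at 26.1 ± 10.1 CPM in SN-MII (SD, n = 4) and 5.07 ± 0.971 CPM in NSN-MII oocytes (SD, n = 3). Arf3, a small GTPase of the Golgi, was at 40.7 ± 9.80 CPM (SD, n = 4) and 9.38 ± 4.89 CPM (SD, n = 3). The other members were far from Mff in this order, with r from −0.38 for Dnm1l to 0.36 for Mief1 among 11374 genes.

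**Figure D5:**
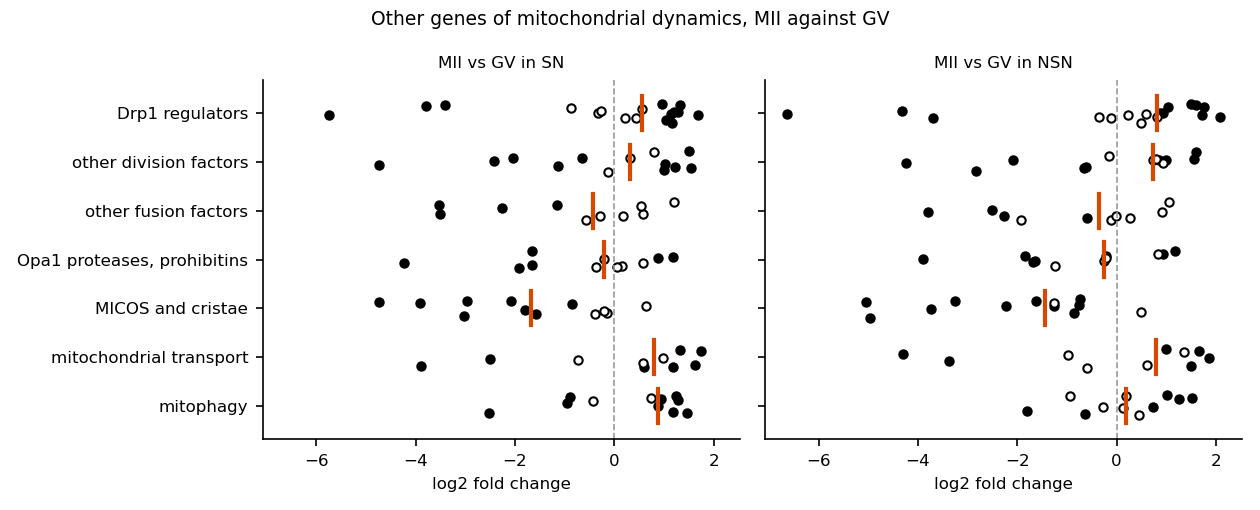
Log2 fold changes of MII over GV in SN (left) and NSN (right) oocytes for other genes of mitochondrial dynamics, by list. Black points passed edgeR's test at an adjusted p under 0.05, white points did not, and orange bars are list medians. The MICOS and cristae list lies lowest, with medians of −1.69 in SN and −1.44 in NSN oocytes.

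Genes around the core machinery were followed in 7 lists, whose counts stand against 25.1% of all genes called higher and 31.2% called lower in SN, and 25.4% and 30.7% in NSN oocytes. In none of them was a gene called by edgeR between the NSN and SN types, at GV or at MII. Of all genes tested, 0% were called at GV and 0.279% at MII, so nothing about the lists is read from this. Of 17 genes that modify or recruit Drp1, 8 rose and 3 fell in each type, with median log2 changes of 0.56 in SN and 0.81 in NSN oocytes, against −0.08 and −0.12 over all genes tested. The 3 that fell were Cdk1 (log2 change −5.74 in SN and −6.64 in NSN), which phosphorylates Drp1 at mitosis, Mul1 (−3.80 and −4.32), a mitochondrial ubiquitin and SUMO ligase, and Cdk5 (−3.41 and −3.70). Of 13 other division factors tested, 5 rose and 5 fell in SN oocytes, and 4 rose and 5 fell in NSN oocytes, with medians of 0.31 and 0.73. They included Bnip1 (−4.73 in SN and −4.25 in NSN) and the dynamin Dnm3 (−2.04 and −2.08).

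Lists on the inner membrane and on fusion came next. Of 12 genes of the MICOS complex and the cristae, none rose, while 8 fell in SN and 10 in NSN oocytes, with medians of −1.69 and −1.44, where 31.2% and 30.7% of all genes fell. They included Mtx1 (−4.73 and −5.04 on the log2 scale in SN and NSN) and Dnajc11 (−3.91 and −3.74). Mtx2 was at 8.03 ± 3.57 CPM in SN-MII (SD, n = 4) and 1.96 ± 0.471 CPM in NSN-MII oocytes (SD, n = 3), without a call between the types (edgeR adjusted p = 0.166). A list on Opa1 processing held mitochondrial proteases and prohibitins, not all of which act on Opa1. Of its 11 genes, 2 rose and 4 fell in each type, with medians of −0.21 and −0.25. They included the protease Clpp (−4.24 and −3.90) and the prohibitins Phb (−1.91 and −1.85) and Phb2 (−1.66 and −1.68). Of 10 other genes linked to fusion, none rose and 4 fell in each type (medians −0.43 and −0.35). Among them were Msto1 (−3.53 and −3.80), Mtch2 (−3.52 and −2.27) and Bax (−2.25 and −2.50). Several of these changes rest on few counts at MII. The highest count in an SN-MII and an NSN-MII library was 8 and 12 for Clpp and 20 and 10 for Mtx1. It was 16 and 10 for Msto1, 10 and 18 for Mtch2, and 21 and 21 for Bax.

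Genes of mitochondrial transport and mitophagy moved both ways, beside 25.1% of all genes higher and 31.2% lower in SN and 25.4% and 30.7% in NSN oocytes. Of 10 transport genes tested, 5 rose in SN and 4 in NSN oocytes, and 2 fell in each, with medians of 0.79 and 0.80. Kif5b, a kinesin heavy chain, rose by 1.74 in SN and 1.65 in NSN oocytes on the log2 scale, and Kif5c by 1.62 and 1.86. Both that fell were Dynll1 (−3.90 in SN and −4.30 in NSN), a dynein light chain, and Snph (−2.50 and −3.37), which anchors mitochondria to microtubules. Of 11 mitophagy genes tested, 6 rose and 3 fell in SN oocytes, and 4 rose and 2 fell in NSN oocytes, with medians of 0.88 and 0.19. Nbr1 rose by 1.28 and 1.26, Tbk1 by 1.45 in SN (0.19 and not called in NSN, interaction adjusted p = 0.799 in edgeR) and Bcl2l13 by 1.18 and 1.52, while the receptor Optn was lower (−2.53 and −1.80), all on the log2 scale.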

How the data were processed

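Single oocytes were sequenced after SMART-seq2 cDNA synthesis and Tn5 fragmentation, without molecular identifiers or strand information. Per the labels, the authors trimmed reads with Trim Galore 0.4.4 and used Bowtie2 2.3.5, RSEM 1.2.28 and mm10, and DESeq2 1.20.0 is named as well. They deposited expected counts by RSEM in 1 table per stage, and FPKM values, scaled by gene length and library size, in 1 table for all libraries. Of the genes with a count in any library, up to 16.6% had a value in a given library that was not whole, since RSEM divides reads among genes.

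The expected counts were rounded. Genes were filtered with filterByExpr, scaled by TMM factors and tested with edgeR 4.0.16 (R 4.3.3, quasi-likelihood with robust dispersion), with Benjamini-Hochberg adjustment over all genes. The 2 types were compared separately at GV and at MII, and the stages within each type in 1 model of 13 libraries with the interaction. CPM values use the TMM factors of all 13 libraries, so ratios of group means differ slightly from fitted folds. Ratios between genes use FPKM. Beyond counting error, oocytes varied: the common biological coefficient of variation was 0.352 at GV and 0.344 at MII. No pair of libraries was a copy (smallest chi-square per degree of freedom 9.71). Replicate numbers name separate oocytes.

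The members and gene lists were chosen with earlier results of these data known. The text names all 8 members, up to 3 called genes per list and comparison by the size of the change, and the 5 genes most like Mff. A gene that this rule names in the list of other division factors is not reported here. Marker lists were used as a check of cell type. The implied effective length and the antisense genes were added after the data were seen. Coordinates are from GENCODE M21 (GRCm38), and promoter sequences from RefSeq (GRCm38.p6). Alternatives were DESeq2 1.42.0, its size factors, library totals, no filter, the replicate block, limma 3.58.1 on log2(FPKM + 1) and log2(FPKM + 0.1), all libraries in 1 model, and each library left out. The steps were tested on simulated data. Reads and protein sequences were not used here.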

Additional observations from a re-analysis of the deposited data

Results flagged for a closer look

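Mff in the fourth SN-MII oocyte was at 1297 CPM, far above the other 3 SN-MII oocytes at 714 to 721 CPM, a gap larger than a test for single outlying values allows. Mief2 was at 0.133 CPM in the first SN-MII oocyte, which is 1 count beside 0 in the other 3. About 1 group in 20 is marked in this way by chance, and the 4 SN-MII oocytes were the only group large enough for the test. The NSN to SN difference of Mff on the log2 scale differed between MII and GV by −2.57 (SE 0.36). This value was flagged because its adjusted p was under 0.05 in edgeR's fit of the interaction over all genes. Mff was chosen from the MII difference, so the flag is no test of Mff and the value is a description.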

How the results depend on the processing

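The direction of Mff between the MII types was the same under all 15 alternatives, with log2 fold changes from −2.97 to −2.53 over fits without 1 library. Mff was chosen by this difference in these libraries, so nothing further is read from its stability. The stage changes of Dnm1l, Fis1 and Mief1 kept their direction and their calls in both types under all 20 alternatives each. The count of genes called at MII was far less stable: 28 in the fit reported, 217 with DESeq2, 16 with library totals alone, 57 without a filter, 9 and 5 with limma on log2(FPKM + 1) and log2(FPKM + 0.1), 74 with all 13 libraries in 1 model, and 3 to 240 without 1 library, the highest without the third NSN-MII oocyte. The count of genes called in the interaction was 2, and it was 39 with DESeq2, 6 without a filter and 0 to 12 without 1 library. Deviations of same-numbered oocytes from their group means had correlations from −0.458 to 0.202. Oocytes of different numbers were not compared in this way, so whether the numbers pair oocytes was not decided. With the replicate number as a block, 3 genes were called at MII, Mfn1 lost its call in SN oocytes (adjusted p = 0.101) and Mfn2 lost its call in SN (0.132) and NSN oocytes (0.0664). At GV the Mfn2 difference turned to −0.20 under the block, −0.18 and −0.26 with limma on FPKM, and −0.37 to −0.01 without the first or second SN GV or the first or the third NSN GV oocyte, with a range of −0.37 to 0.47 over single libraries. The GV differences of Dnm1l and Opa1 turned to 0.10 and 0.20 without the second NSN GV oocyte (ranges −0.45 to 0.10 and −0.68 to 0.20). The Mfn1 change in SN oocytes turned to −0.14 with limma on either FPKM scale. The Opa1 call in NSN oocytes was lost under 12 of 20 alternatives. The cause of these changes was not tested. Library totals alone shifted the median of all genes by −0.30 (SN) and −0.29 (NSN) between the stages and brought the Mff change in SN oocytes to 0.04. Mief2 had at most 12 counts in a library, so differences in it were not detectable at this depth. With limma on FPKM, Mfn1 also lost its call in NSN oocytes (0.29 and 0.30).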
